A study of Homo sapiens with 12 samples.

Results

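A set of 8 genes, out of 60710 gene rows in the count table, were near the counting floor in SH-SY5Y cells given solvent alone and were higher in cells given HPPE, zinc protoporphyrin (ZnPP) or tin protoporphyrin (SnPP). They were MALL, HTRA3, SIRPG, SIRPG-AS1, PCBP3-AS1, PHLDA2, IL7R and LIF. The members were chosen by these same counts, low with DMSO and higher with a compound, so their differences from DMSO are described below without a test. The description "near the floor" held for most of the solvent libraries but not for every one of them: LIF had 12 counts in solvent replicate 2 and SIRPG-AS1 had 4 counts in solvent replicate 1, against a floor set at 3 counts.

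SH-SY5Y is an established human neuroblastoma cell line of sympathetic nerve origin. Cells were kept for 5 h with HPPE, ZnPP or SnPP at 5 µM, each delivered in DMSO, and the control wells received DMSO only, so every group shared the solvent. ZnPP and SnPP are heme-like rings that differ from each other in the metal at the centre, zinc or tin. The labels do not expand the name HPPE. Each of the 4 groups had 3 libraries made from mRNA. The labels call them replicates without saying whether they came from separate cultures, so the spread and p-values below measure the spread between these libraries, which may be technical.

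These genes have unlike roles. LIF is a secreted cytokine of the interleukin 6 family that signals through LIFR and IL6ST, and IL7R is the alpha chain of the receptors for interleukin 7 and TSLP, best known from lymphocytes. SIRPG is a surface protein of the signal-regulatory protein family that binds CD47 and is known from T cells, and SIRPG-AS1 is a long noncoding RNA on the opposite strand. MALL is a membrane protein of the MAL family found in caveolae and lipid rafts. HTRA3 is a secreted serine protease that can antagonise TGF-beta family signalling. PHLDA2 is an imprinted gene with a pleckstrin homology domain, known for restricting placental growth. PCBP3-AS1 is a noncoding RNA that lies opposite PCBP3, a member of a family of poly(C)-binding RNA proteins. Hemes and metalloprotoporphyrins act on heme oxygenase and on the repressor BACH1, and the heme oxygenase gene HMOX1 is a usual readout of such compounds.

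The genes lie on 7 chromosomes. In the RefSeq annotation of GRCh38.p14, MALL (ENSG00000144063.4) spans chr2:110083870-110118139 on the minus strand, HTRA3 (ENSG00000170801.10) chr4:8269754-8307098 on the plus strand, and IL7R (ENSG00000168685.15) chr5:35856891-35879603 on the plus strand. PHLDA2 (ENSG00000181649.8) spans chr11:2928273-2929420 on the minus strand, PCBP3-AS1 (ENSG00000205424.2) chr21:45827841-45836419 on the minus strand, and LIF (ENSG00000128342.5) chr22:30240453-30246759 on the minus strand. SIRPG (ENSG00000089012.14) at chr20:1629152-1686455 on the minus strand encloses SIRPG-AS1 (ENSG00000237914.5) at chr20:1633508-1648473 on the plus strand. Whether the authors counted by strand is not given in the sources used here. In GENCODE release 29 SIRPG and SIRPG-AS1 shared 14965 bases but 0 exon bases, and PCBP3-AS1 shared 8459 bases with PCBP3 and 0 exon bases. LIF shared 92 exon bases with LIF-AS1 and 175 with AC004264.1, both on the opposite strand, out of 3969 exon bases. Counts of SIRPG, SIRPG-AS1, PCBP3-AS1 and LIF are uncertain to the extent that reads of an overlapping gene, spliced or not, were assigned to them.

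Promoters were available in the RefSeq table for 5 of the 8 genes, MALL with 2 start sites, as windows of 250 bases before and 50 after the start (build GRCh38.p14). Printed here are HTRA3, which was counted with HPPE and hardly at all with the other compounds, and SIRPG-AS1, PCBP3-AS1 and IL7R, whose mean levels were higher with ZnPP and SnPP than with HPPE. They are shown so that the regions upstream of the contrasting genes can be compared. The windows are chr4:8269504-8269803 on the plus strand for HTRA3, chr20:1633258-1633557 on the plus strand for SIRPG-AS1, chr21:45836370-45836669 on the minus strand for PCBP3-AS1 and chr5:35856641-35856940 on the plus strand for IL7R. Capitals mark matches to a TATA box or an E-box.
HTRA3: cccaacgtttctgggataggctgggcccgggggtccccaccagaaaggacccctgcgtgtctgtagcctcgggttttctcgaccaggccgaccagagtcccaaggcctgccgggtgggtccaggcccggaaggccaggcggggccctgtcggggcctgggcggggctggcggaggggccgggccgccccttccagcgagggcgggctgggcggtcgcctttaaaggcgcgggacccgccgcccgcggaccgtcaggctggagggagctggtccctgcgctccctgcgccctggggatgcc
SIRPG-AS1: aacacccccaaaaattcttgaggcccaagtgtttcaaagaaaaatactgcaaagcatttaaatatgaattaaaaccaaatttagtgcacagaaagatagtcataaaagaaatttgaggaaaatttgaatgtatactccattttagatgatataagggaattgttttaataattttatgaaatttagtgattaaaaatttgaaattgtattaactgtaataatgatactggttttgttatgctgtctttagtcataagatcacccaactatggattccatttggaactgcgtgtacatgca
PCBP3-AS1: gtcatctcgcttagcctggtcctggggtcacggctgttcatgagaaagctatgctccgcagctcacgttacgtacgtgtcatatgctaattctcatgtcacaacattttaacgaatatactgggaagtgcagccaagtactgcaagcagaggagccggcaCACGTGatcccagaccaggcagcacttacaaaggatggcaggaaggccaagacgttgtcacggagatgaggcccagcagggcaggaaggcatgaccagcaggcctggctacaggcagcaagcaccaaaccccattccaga
IL7R: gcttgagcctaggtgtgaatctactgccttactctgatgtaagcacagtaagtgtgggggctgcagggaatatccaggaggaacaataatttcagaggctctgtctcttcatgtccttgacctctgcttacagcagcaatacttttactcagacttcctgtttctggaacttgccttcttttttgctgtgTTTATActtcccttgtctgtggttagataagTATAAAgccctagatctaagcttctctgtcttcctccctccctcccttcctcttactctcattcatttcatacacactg

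The HTRA3 window was 74.7% G or C with 27 CG dinucleotides, and the SIRPG-AS1 window was 28.7% G or C with 1. PCBP3-AS1 stood at 54.3% with 11 CG and IL7R at 44.3% with 0. The MALL starts differed from each other: the window at chr2:110118090-110118389 was 44.3% G or C with 0 CG, and the window at chr2:110115773-110116072 was 65.7% with 24. Over 35116 RefSeq promoters the median was 58.7% and 14 CG, with quartiles of 4 and 28. Motifs were searched on both strands. TATAAA occurred 60 and 29 bases before the IL7R start (11.5% of all promoters hold a match), and CACGTG occurred 90 bases before the PCBP3-AS1 start (7.26% of all promoters). The AP-1 motif TGANTCA, the antioxidant response element core TGACNNNGC and the CRE TGACGTCA matched none of the 6 windows, against 7.71%, 13.3% and 1.85% of all promoters. No base composition was therefore common to all 6 windows, although IL7R and the MALL window at chr2:110118090-110118389 were alike at 44.3% with 0 CG. None of the 5 motifs was found in more than 1 window.

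Library totals ran from 1337028 counts (ZnPP replicate 1) to 9145399 (SnPP replicate 2), and solvent replicate 3, HPPE replicate 3 and ZnPP replicate 1 were shallow, with fewer than 4000000 counts each. CPM are counts scaled to a common library size after TMM scaling and are not scaled by gene length. A count of 3 was worth 0.337 CPM in the deepest library and 2.26 CPM in the shallowest, and 1.91 CPM in solvent replicate 3, so a level near 1 CPM rests on 1 or 2 reads in ZnPP replicate 1. Libraries of 1 group also differed along a common axis that held 52.7% of the variance within groups over 10972 genes. HMOX1 was at 5.90 ± 1.57 CPM with DMSO (SD, n = 3), 351.5 ± 17.6 with HPPE, 47.0 ± 19.2 with ZnPP and 7.38 ± 0.529 with SnPP. In bulk libraries of this kind, a higher count can come from more cells carrying an RNA or from more RNA per cell, and these cannot be told apart.

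**Figure D1:**
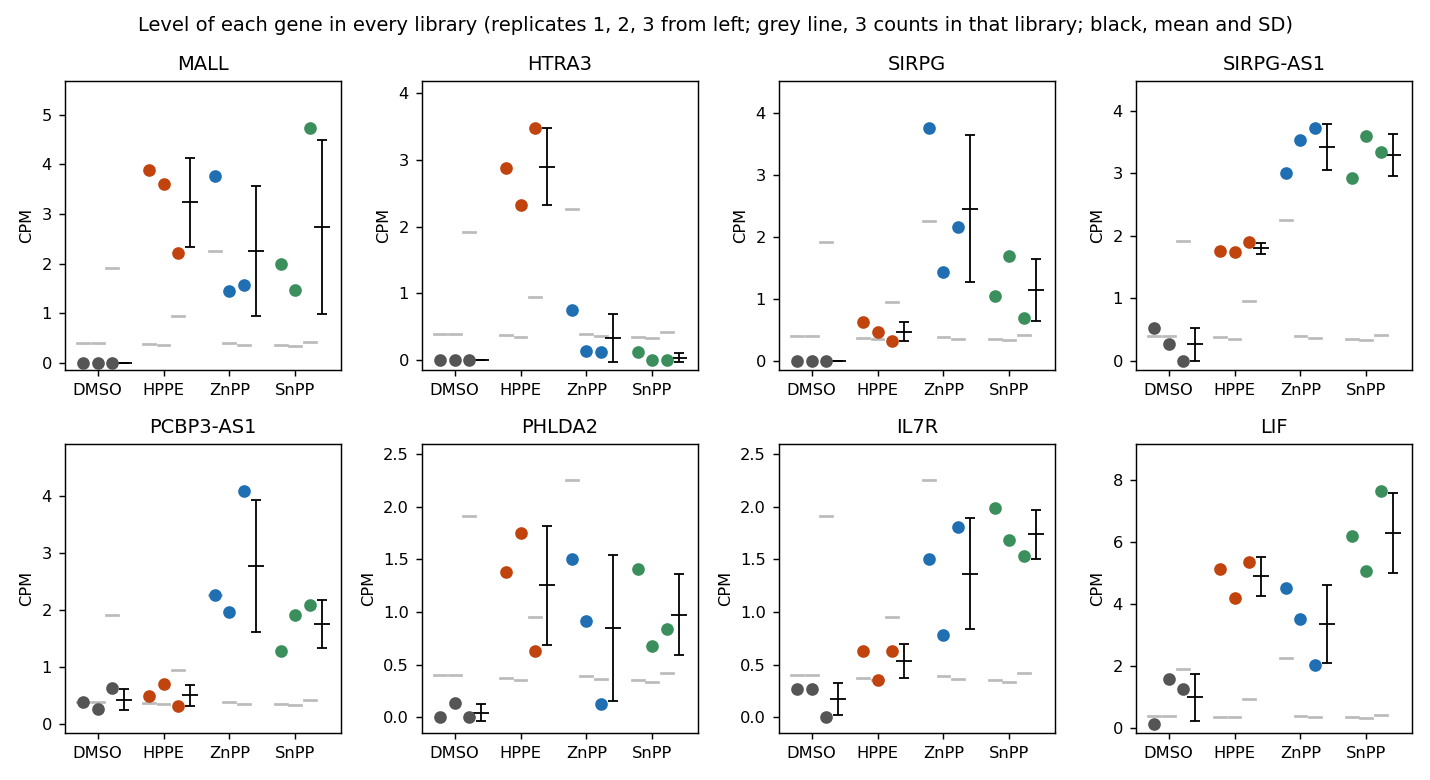
Level of each of the 8 genes in CPM (vertical axis) in the 3 libraries of each group (horizontal axis), with the mean and SD in black and the level that 3 counts are worth in each library as a grey line. HTRA3 is high only in the 3 HPPE libraries, whereas SIRPG-AS1, PCBP3-AS1 and IL7R have their higher levels in the ZnPP and SnPP libraries.

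HTRA3 was found in quantity with HPPE alone. Its raw counts were 0, 0 and 0 in the solvent libraries and 23, 20 and 11 in the HPPE libraries, at 2.88, 2.33 and 3.48 CPM. Each ZnPP library had 1 count, and the SnPP libraries had 1, 0 and 0. Every HPPE library was above every other library, the nearest being ZnPP replicate 1 at 0.753 CPM, where 1 read is all that was counted. A count of 3 was worth 2.26 CPM there and 1.91 CPM in solvent replicate 3, so the distance from these 2 libraries is uncertain. Summed over each group, 54 counts with HPPE stood against 0 with DMSO, and HTRA3 was at least 15.2-fold higher; the bound sets the solvent at the floor of 3 counts over the group (0.18 CPM). Without solvent replicate 1 or 2 the bound was 8.34 or 8.32, since the floor then rests on fewer reads. The 0 counts with DMSO allow a level of up to 0.221 CPM (exact Poisson 95% interval, counting error only). With ZnPP and SnPP, as with DMSO, HTRA3 was at or under the floor over the group, so no fold is given.

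MALL was counted in every library of all 3 compounds and in no solvent library. Its counts were 0, 0 and 0 with DMSO, 31, 31 and 7 with HPPE, 5, 11 and 13 with ZnPP, and 17, 13 and 34 with SnPP. In CPM this was 3.88, 3.61 and 2.22 with HPPE, 3.76, 1.44 and 1.56 with ZnPP, and 1.99, 1.46 and 4.73 with SnPP. The ranges of the 3 compounds overlapped one another and none reached the solvent libraries. The pooled level was at least 19.5-fold higher than DMSO with HPPE, 9.34-fold with ZnPP and 14.5-fold with SnPP, each again against a floor of 3 counts. Leaving out solvent replicate 1 or 2 lowered these bounds to 10.7 or 10.6, 5.11 or 5.10, and 7.93 or 7.91, and leaving out SnPP replicate 3 lowered the SnPP bound to 9.59.

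LIF was the gene of the set with solvent counts furthest from 0, and its mean level was highest with SnPP. It was counted 1, 12 and 2 times with DMSO, 41, 36 and 17 times with HPPE, 6, 27 and 17 times with ZnPP, and 53, 45 and 55 times with SnPP. The solvent mean was 0.997 ± 0.765 CPM (SD, n = 3), against 4.90 ± 0.626 with HPPE, 3.37 ± 1.24 with ZnPP and 6.31 ± 1.30 with SnPP. Every compound library exceeded every solvent library, although ZnPP replicate 3 at 2.05 CPM was close to solvent replicate 2 at 1.58. The ratio of pooled levels to DMSO was 5.30 with HPPE (95% counting interval 3.06 to 9.85), 3.22 with ZnPP (1.78 to 6.18) and 6.92 with SnPP (4.07 to 12.7). Solvent replicate 2 held 12 of the 15 solvent counts. Without it the ratios were 14.5, 8.80 and 18.9, and without solvent replicate 1 they were 3.11, 1.89 and 4.06.

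PHLDA2 was low throughout. Its counts were 0, 1 and 0 with DMSO, 11, 15 and 2 with HPPE, 2, 7 and 1 with ZnPP, and 12, 6 and 6 with SnPP. That gave 1.38, 1.75 and 0.633 CPM with HPPE, 1.51, 0.916 and 0.12 with ZnPP, and 1.41, 0.675 and 0.835 with SnPP. All HPPE and SnPP libraries were above the highest solvent library (0.132 CPM), while ZnPP replicate 3 was not. The pooled ratios of 23.7 with HPPE (counting interval 3.92 to 969), 9.66 with ZnPP (1.37 to 419) and 16.3 with SnPP (2.66 to 670) rest on a single solvent read. Without that library, solvent replicate 2, the folds became lower bounds of 4.32, 1.76 and 2.97. Without solvent replicate 1 they were 13.0, 5.29 and 8.92, and the ZnPP ratio without ZnPP replicate 3 was 16.8.

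SIRPG-AS1 and SIRPG, which share a locus, were both higher with ZnPP and SnPP than with HPPE in mean level. SIRPG-AS1 was counted 4, 2 and 0 times with DMSO, 14, 15 and 6 times with HPPE, 4, 27 and 31 times with ZnPP, and 25, 32 and 24 times with SnPP. Its CPM were 1.80 ± 0.087 with HPPE, 3.42 ± 0.371 with ZnPP and 3.29 ± 0.338 with SnPP, against 0.264 ± 0.265 with DMSO (SD, n = 3 each). The HPPE counts allow a pooled level from 1.24 to 2.47 CPM (exact Poisson 95% interval), so the small SD there is no measure of precision. No HPPE library overlapped a ZnPP or SnPP library. The pooled ratios to DMSO were 4.94 with HPPE (2.05 to 14.4), 9.99 with ZnPP (4.34 to 28.3) and 9.16 with SnPP (4.03 to 25.7), and without solvent replicate 1 they were 8.11, 16.4 and 15.

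SIRPG itself had no solvent count. It had 5, 4 and 1 counts with HPPE, 5, 11 and 18 with ZnPP, and 9, 15 and 5 with SnPP. The levels were 0.469 ± 0.154 CPM with HPPE, 2.46 ± 1.19 with ZnPP and 1.15 ± 0.502 with SnPP. All 3 HPPE libraries, at 0.625, 0.466 and 0.317 CPM, lay below every ZnPP library and every SnPP library. Against a floor of 3 solvent counts, the pooled level was at least 2.82-fold above DMSO with HPPE, 11-fold with ZnPP and 6.56-fold with SnPP. These bounds leave out the counting error of the compound libraries, which is large for the 10 counts summed over HPPE. Without solvent replicate 1 or 2 each bound shrank, to 1.54 for HPPE, to 6.00 or 5.98 for ZnPP and to 3.59 for SnPP.

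PCBP3-AS1 differed from the solvent with the protoporphyrins but overlapped it with HPPE. It was counted 3, 2 and 1 times with DMSO, 4, 6 and 1 times with HPPE, 3, 15 and 34 times with ZnPP, and 11, 17 and 15 times with SnPP. Means were 0.433 ± 0.190, 0.505 ± 0.191, 2.77 ± 1.15 and 1.76 ± 0.419 CPM in that order. HPPE replicate 3 (0.317 CPM) fell inside the solvent range of 0.264 to 0.638, whereas each ZnPP and SnPP library was at 1.29 CPM or above. Pooled ratios to DMSO were 1.55 with HPPE (0.526 to 5.11), 8.38 with ZnPP (3.60 to 23.9) and 4.86 with SnPP (2.06 to 14.0). The sense gene PCBP3 was at 63.4 ± 3.58, 57.2 ± 3.73, 57.7 ± 5.63 and 65.2 ± 4.07 CPM, and its log2 differences from DMSO of -0.16 ± 0.09, -0.12 ± 0.09 and 0.02 ± 0.09 (SE) did not pass the test (adjusted p 0.39, 0.516 and 0.989).

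IL7R counts were 2, 2 and 0 with DMSO, 5, 3 and 2 with HPPE, 2, 6 and 15 with ZnPP, and 17, 15 and 11 with SnPP. The mean was 0.176 ± 0.153 CPM with DMSO, 0.536 ± 0.162 with HPPE, 1.37 ± 0.524 with ZnPP and 1.74 ± 0.235 with SnPP. In HPPE the highest library reached 0.633 CPM, below every ZnPP library (lowest 0.785) and every SnPP library (lowest 1.53). Pooled ratios were 2.12 with HPPE, whose counting interval of 0.61 to 9.24 includes 1, 5.56 with ZnPP (1.90 to 22.1) and 7.30 with SnPP (2.65 to 28.0).

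The order of the compounds therefore differed from gene to gene. HTRA3 was highest with HPPE, and ZnPP and SnPP were both at the floor. For MALL and PHLDA2 the mean levels ran HPPE, SnPP, ZnPP from the highest, with overlapping libraries. SIRPG, SIRPG-AS1 and PCBP3-AS1 ran ZnPP, SnPP, HPPE, with ZnPP and SnPP overlapping for all 3. IL7R and LIF were highest with SnPP, but IL7R overlapped between SnPP and ZnPP and LIF between SnPP and HPPE. Each compound had 7 of the 8 genes with all libraries above all solvent libraries, the exceptions being PCBP3-AS1 with HPPE, PHLDA2 with ZnPP and HTRA3 with SnPP. Several of these libraries were themselves at or under 3 counts. HTRA3 with ZnPP had 1 read in each library. With HPPE, SIRPG had 1 read and PHLDA2 2 in replicate 3, and IL7R had 3 in replicate 2 and 2 in replicate 3. In ZnPP replicate 1, IL7R had 2 reads and PCBP3-AS1 3. Solvent replicate 3, where 3 counts were worth 1.91 CPM, could hardly have shown such levels. Over the 16366 tested genes that share was 11.9% with HPPE, 11.6% with ZnPP and 10.3% with SnPP, and nothing is read from the difference because the genes were selected on it. All 8 genes passed the filter on low counts, each through compound libraries: HTRA3 reached the level of the filter in HPPE libraries only, SIRPG in 3 ZnPP libraries and 1 SnPP library, and PCBP3-AS1 and IL7R in ZnPP and SnPP libraries only, while LIF reached it in 2 solvent libraries as well.

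The compounds were next compared with each other at the matched dose and time. The 3 contrasts were not those by which the genes were selected, but the same compound libraries were used, so these tests are not independent of the selection. HTRA3 entered the fit only through the HPPE libraries and had to differ there. PCBP3-AS1, SIRPG and IL7R reached the level of the filter in ZnPP or SnPP libraries and in no HPPE library. The tests of these genes between HPPE and the other compounds are therefore given as a description. HTRA3 was higher with HPPE than with ZnPP by 3.85 ± 0.59 on the log2 scale (SE, edgeR quasi-likelihood test, adjusted p 0.00198). It was higher than with SnPP by 5.55 ± 0.67 (adjusted p 0.000302). As ratios of pooled counts these were 15.8 (counting interval 5.11 to 78.8) and 67.3 (11.6 to 2708), the lower counts being 3 and 1. PCBP3-AS1 was lower with HPPE than with ZnPP, at -2.38 ± 0.44 (adjusted p 0.00518), as were SIRPG, at -1.95 ± 0.52 (0.0281), and SIRPG-AS1, at -1.0 ± 0.28 (0.0312). Over all tested genes 12.7% were called between HPPE and ZnPP and 1.45% between HPPE and SnPP.

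With no gene filter the HTRA3 differences were 3.87 and 5.55 (adjusted p 1.37e-06 and 1.05e-10). Calls of the other genes depended on the setting. PCBP3-AS1 lost its call without ZnPP replicate 3 (log2 difference -1.83, adjusted p 0.0953). SIRPG lost it without ZnPP replicate 3 (adjusted p 0.169), HPPE replicate 2 (0.132) or HPPE replicate 3 (0.0848), and without the 3 shallow libraries (0.0945) or with the replicate block (0.057). SIRPG-AS1 lost it without ZnPP replicate 3 (0.17) or 2 (0.0676) and without HPPE replicate 1, 2 or 3 (0.0636, 0.13 and 0.0787), without the 3 shallow libraries (0.0723), with no gene filter (0.0669) and with the replicate block (0.0784).

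Between HPPE and SnPP the remaining 7 genes were not called. IL7R stood at -1.74 ± 0.44 (adjusted p 0.067; 95% interval -2.61 to -0.87), PCBP3-AS1 at -1.63 ± 0.46 (0.102; -2.52 to -0.73), SIRPG-AS1 at -0.88 ± 0.26 (0.128; -1.40 to -0.36) and SIRPG at -1.19 ± 0.53 (0.362; -2.23 to -0.14). MALL, LIF and PHLDA2 had intervals that spanned 0, of -0.38 to 1.14, -0.95 to 0.19 and -0.47 to 1.49. Of the genes not called between HPPE and ZnPP, MALL was at 1.0 ± 0.46 (adjusted p 0.149), LIF at 0.70 ± 0.36 (0.182), PHLDA2 at 1.22 ± 0.61 (0.174) and IL7R at -1.35 ± 0.50 (0.0747). IL7R gained a call there without ZnPP replicate 2 (adjusted p 0.049) and with the library axis as covariate (0.0485), and MALL with the axis (0.0333) and with the compared groups only (0.0375). With the axis, IL7R (0.00666), PCBP3-AS1 (0.00989) and SIRPG-AS1 (0.0262) were called between HPPE and SnPP. The axis was computed from the differences within groups of these same libraries, so fitting it removes spread by construction. Calls gained with it add no support.

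For zinc against tin in the same ring, none of the 8 genes was called in the edgeR fit described above, and 0.00611% of tested genes were. LIF came closest, at -1.09 ± 0.33 for ZnPP minus SnPP (95% interval -1.74 to -0.43, unadjusted p 0.00455, adjusted p 0.353), with no overlap between the 3 libraries of each. It was called without SnPP replicate 2 (adjusted p 0.0341), with no gene filter (0.015) and with the library axis as covariate (0.00308). In the other 20 of 23 alternatives LIF was not called, with adjusted p 0.638 for DESeq2 and 0.439 for the compared groups only. PCBP3-AS1 had an interval of 0.10 to 1.41 (unadjusted p 0.0377, adjusted p 0.364). These were the 2 of 8 genes under an unadjusted p of 0.05. The share of all tested genes under that line is not given here, so nothing is read from this number. The intervals were -1.53 to 0.29 for MALL, -0.05 to 1.58 for SIRPG, -0.35 to 0.59 for SIRPG-AS1, -1.94 to 0.52 for PHLDA2 and -1.12 to 0.35 for IL7R. Intervals of this width leave room for differences between the metals in each of these genes. HTRA3 was at or under the floor in both groups and is not compared.

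**Figure D2:**
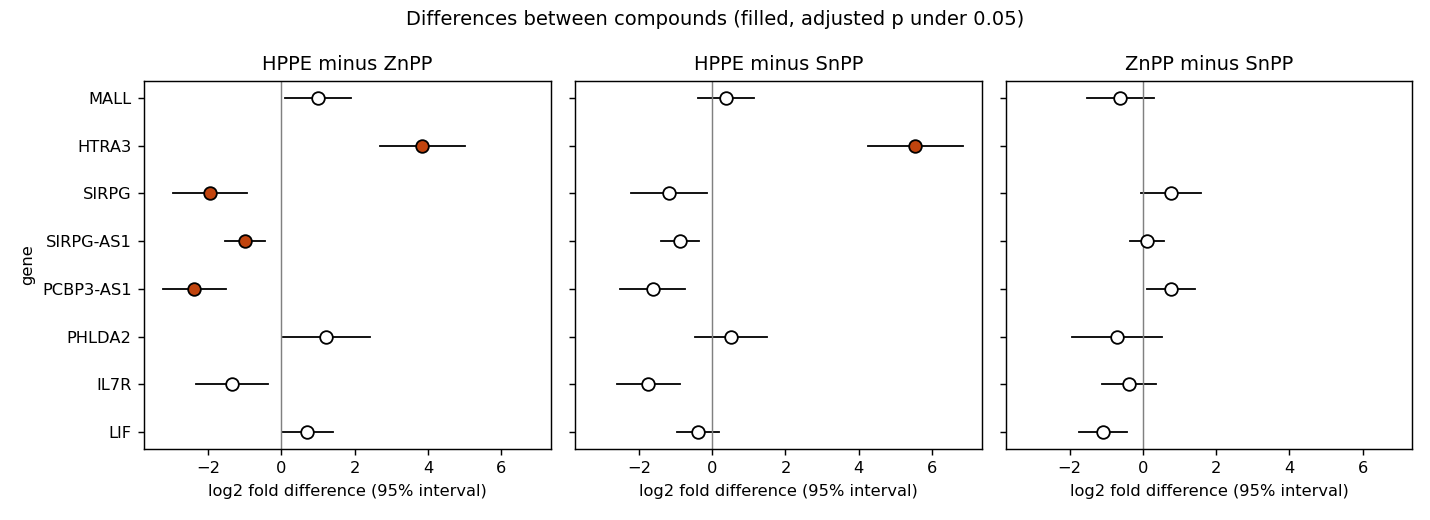
Log2 fold difference between 2 compounds (horizontal axis) with its approximate 95% interval for each gene (vertical axis), filled where the adjusted p was under 0.05. The intervals use a normal quantile and are somewhat too narrow. For HPPE minus ZnPP those of LIF and PHLDA2 exclude 0, with unadjusted p of 0.0651 and 0.0605 in the quasi-likelihood test. Filled points are HTRA3 in both HPPE contrasts and SIRPG, SIRPG-AS1 and PCBP3-AS1 for HPPE minus ZnPP, and HTRA3 is not drawn for ZnPP minus SnPP because both groups were at the floor. HTRA3, SIRPG and PCBP3-AS1 passed the count filter only through groups where they were high, so their points are a description.

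Relatives, signalling partners and chromosomal neighbours of the 8 genes were not used by the selection and were tested against DMSO. Among 118 such gene symbols 82 passed the count filter. With HPPE 7 were called higher and 2 lower, where 2.57% and 1.47% of all tested genes were. With ZnPP 4 were higher and 1 lower (1.84% and 0.415% of all tested genes), and with SnPP 7 and 1 (1.9% and 0.379%). Each list below is read beside these shares, and nothing particular to a list is drawn from so few calls. Their median log2 difference was 0.09, -0.06 and 0.04 in that order, beside 0.02, -0.0038 and 0.0092 over all tested genes. The 3 contrasts share their solvent libraries and are given side by side.

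The LIF and IL7R signalling list had 22 of 30 genes tested, of which 2 rose with HPPE, 0 with ZnPP and 1 with SnPP, and none fell. IL6R, the ligand-binding receptor of interleukin 6, went from 1.36 ± 0.637 CPM to 5.79 ± 0.726 with HPPE (log2 difference 1.86 ± 0.28, adjusted p 0.000688) and to 3.94 ± 0.729 with SnPP (1.29 ± 0.29, 0.0244). With ZnPP it was at 2.86 ± 0.511 (0.79 ± 0.33, 0.207), and the difference between HPPE and ZnPP was called (1.07 ± 0.25, 0.017). IL11, a cytokine that signals through IL6ST as LIF does, rose with HPPE from 3.60 ± 1.35 to 8.61 ± 1.05 CPM (1.44 ± 0.23, 0.0011). Both HPPE calls held in all 23 alternatives, while the SnPP call of IL6R was lost without solvent replicate 1 (adjusted p 0.15) or 2 (0.0917) and SnPP replicate 2 (0.0559) or 3 (0.0849), without the 3 shallow libraries (0.0799), with DESeq2 (0.0576), the compared groups only (0.112) and the replicate block (0.05). The LIF receptor chains were present at 45.0 ± 13.4 (LIFR) and 115.2 ± 21.4 CPM (IL6ST) with DMSO, with log2 differences between -0.07 and 0.13 and no call. IL2RG, the common gamma chain with which IL7R forms the interleukin 7 receptor, and CRLF2, its partner for TSLP, had 0 counts in all 12 libraries. IL7, the ligand, was at 12.1 ± 1.73 CPM with DMSO and 17.6 ± 1.09 with ZnPP (0.45 ± 0.14, adjusted p 0.0981). SOCS3, a feedback inhibitor induced by LIF signalling, was at 17.0 ± 1.89 CPM with DMSO, 14.0 ± 0.611 with HPPE, 11.9 ± 2.66 with ZnPP and 13.1 ± 2.00 with SnPP, with no call.

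In the SIRP family and CD47 list 3 of 7 genes were tested and 1 rose. SIRPA, the inhibitory myeloid and neuronal receptor for CD47, went from 7.39 ± 0.848 to 12.8 ± 1.88 CPM with HPPE (0.87 ± 0.20, adjusted p 0.0156) and was at 7.05 ± 2.44 with ZnPP and 9.51 ± 1.49 with SnPP. For HPPE minus ZnPP, SIRPA was at 1.09 ± 0.20 (adjusted p 0.00518) and SIRPG, its neighbour, at -1.95 ± 0.52, in the opposite direction. SIRPG reached the level of the filter in no HPPE library, so its difference is a description. The SIRPA increase was lost without solvent replicate 1 (0.135), solvent replicate 2 (0.0885) or HPPE replicate 2 (0.134). CD47 was at 100.4 ± 4.53 CPM with DMSO, with log2 differences from -0.06 to 0.05.

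In the MAL family list 12 of 18 genes were tested. MYADM, a raft protein of the same superfamily as MALL, rose from 51.2 ± 4.58 CPM to 76.9 ± 2.39 with HPPE (0.55 ± 0.10, adjusted p 0.00463) and to 79.8 ± 1.93 with SnPP (0.61 ± 0.10, 0.00246), and was at 57.1 ± 9.43 with ZnPP (0.15 ± 0.11, 0.477). HPPE exceeded ZnPP by 0.40 ± 0.10 (0.0233). Its HPPE call against DMSO was lost without the 3 shallow libraries (0.0548). CMTM4 fell with SnPP by 0.49 ± 0.09 (adjusted p 0.00403), a call lost when only the compared groups were fitted (0.0586). MAL itself had 0 counts in all libraries. None of the 12 was called with ZnPP.

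The HTRA family and TGF-beta ligand list, 10 of 14 tested, held calls in both directions. TGFB3 fell with HPPE from 13.1 ± 1.47 to 5.22 ± 0.436 CPM (log2 difference -1.27 ± 0.17, adjusted p 0.000175), in all 23 alternatives, and stood at 12.1 ± 0.808 with ZnPP and 10.8 ± 1.24 with SnPP. TGFB2 fell with HPPE (-0.48 ± 0.11, 0.0213) and rose with ZnPP (0.53 ± 0.11, 0.017) and SnPP (0.59 ± 0.10, 0.00382), and the differences themselves were called, at -1.01 ± 0.11 for HPPE minus ZnPP (4.03e-05) and -1.07 ± 0.10 for HPPE minus SnPP (8.41e-06). For TGFB3 the same contrasts gave -1.21 ± 0.17 (0.000567) and -1.04 ± 0.16 (0.00154). INHBA, the activin A subunit, rose with HPPE (0.58 ± 0.14, 0.0246), ZnPP (0.82 ± 0.14, 0.00476) and SnPP (0.98 ± 0.13, 0.000306). TGFB1 rose with SnPP (0.68 ± 0.14, 0.0115). HTRA1, another secreted protease of the family, was at 42.8 ± 4.36 CPM with DMSO and was not called with any compound.

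Several of these calls turned on single libraries or on the setting. Without solvent replicate 2, the adjusted p was 0.0604, 0.146 and 0.0657 for TGFB2 with HPPE, ZnPP and SnPP, 0.157 and 0.0584 for INHBA with HPPE and ZnPP, and 0.0803 for TGFB1 with SnPP. Without solvent replicate 1 it was 0.172 for TGFB2 and 0.0709 for INHBA with HPPE, and 0.0995 for TGFB1. TGFB2 with HPPE also lost its call without HPPE replicate 1 (0.105) or 2 (0.095), and with ZnPP without ZnPP replicate 2 (0.0925) or 3 (0.0966) or with the replicate block (0.0703). INHBA with HPPE also lost it without HPPE replicate 1, 2 or 3 (0.129, 0.0554 and 0.0565), without the 3 shallow libraries (0.0908), with DESeq2 (0.0663) and with the replicate block (0.0569).

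Of the PHLDA family and the imprinted 11p15 genes, 12 of 13 were tested and PHLDA1 alone was called. PHLDA1, a relative of PHLDA2, was at 5.95 ± 1.91 CPM with DMSO and rose to 10.6 ± 1.88 with HPPE (0.73 ± 0.18, adjusted p 0.0285), 11.8 ± 0.922 with ZnPP (0.79 ± 0.19, 0.0343) and 12.7 ± 0.185 with SnPP (0.94 ± 0.17, 0.00535). Its calls were lost without solvent replicate 2 (0.158, 0.175 and 0.0667). They were also lost with HPPE without solvent replicate 1 (0.0504) or HPPE replicate 1 (0.0822) or 2 (0.202), and with ZnPP without solvent replicate 3 (0.0588), any of ZnPP replicates 1 to 3 (0.0619, 0.0889 and 0.149) or SnPP replicate 3 (0.0568). DESeq2 (0.0586) and the compared groups only (0.0542) ended the HPPE call, the compared groups only (0.0553), the replicate block (0.0591) and removal of the 3 shallow libraries (0.0982) the ZnPP call, and the compared groups only (0.0509) the SnPP call. CDKN1C, imprinted in the same domain as PHLDA2, was at 21.1 ± 3.90 CPM with DMSO and had log2 differences of 0.19 ± 0.15, 0.08 ± 0.16 and 0.17 ± 0.15. The 4 PCBP family genes were all tested and none was called.

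The 3 nearest protein-coding genes on each side of each locus made 42 neighbours, of which 41 matched the count table by symbol and 25 were tested. SLC67A1, beside PHLDA2, matched no row by that symbol and was not looked up under another. Calls among them were SH3TC1 and SIRPA with HPPE, SH3TC1 higher and COL6A1 lower with ZnPP, and SH3TC1 with SnPP. SH3TC1 ends upstream of HTRA3 (chr4:8182072-8241103). It was at 10.7 ± 0.541 CPM with DMSO, 22.5 ± 0.704 with HPPE (1.09 ± 0.13, adjusted p 4.11e-05), 18.2 ± 0.714 with ZnPP (0.78 ± 0.13, 0.00421) and 19 ± 1.37 with SnPP (0.84 ± 0.12, 0.000801), and kept these calls in all 23 alternatives. Unlike HTRA3, it was higher with all 3 compounds, and its differences between HPPE and ZnPP (0.31 ± 0.12, adjusted p 0.0824) and HPPE and SnPP (0.25 ± 0.11, 0.335) did not pass. COL6A1, which lies beyond the end of PCBP3, was lower with ZnPP by a log2 difference of -0.32 ± 0.08 (adjusted p 0.0343). That call was lost on leaving out any of 7 single libraries: solvent replicate 1 or 2 (0.0755 and 0.16), HPPE replicate 2 or 3 (0.0591 and 0.0561), ZnPP replicate 2 or 3 (0.0916 and 0.232), or SnPP replicate 3 (0.0569). It was also lost with the compared groups only (0.0881), the replicate block (0.109), without the 3 shallow libraries (0.0773) and with HPPE replicates 2 and 3 summed (0.0573).

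**Figure D3:**
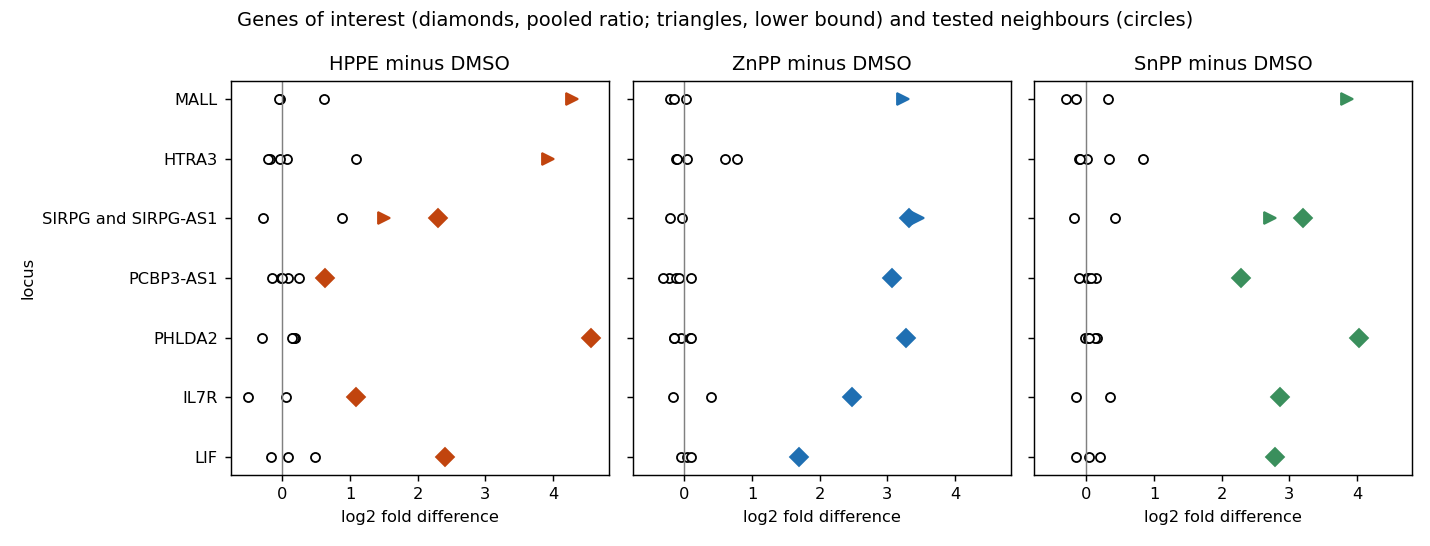
Log2 fold difference from DMSO (horizontal axis) of each gene and its tested neighbours by locus (vertical axis). Diamonds are ratios of pooled levels, triangles are lower bounds against 3 solvent counts and circles are fitted values of neighbours, which lie between -0.51 and 1.09, the highest in each panel being SH3TC1 beside HTRA3.

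IL7R and SIRPG are known from T cells, and T cell markers were low. The 14 markers summed to 1.28 to 4.62 CPM per library with DMSO, 4.78 to 7.13 with HPPE, 6.28 to 9.04 with ZnPP and 6.12 to 6.92 with SnPP. The defining markers CD3D, CD3E, CD3G, CD2 and CD7 had 0 counts in all 12 libraries. Most of the sum was CD8A and CD4, the only markers of the list that were tested, and neither was called. Of 8 myeloid markers LYZ, ITGAM and TYROBP had 0 counts in all 12 libraries, and the sum ran from 1.0 to 2.25 CPM. Markers of epithelial cells summed to 14.3 to 16.6 CPM with DMSO and 16.0 to 20.6 over the compound libraries, with 3 of 8 tested and none called. Mesenchymal markers summed to 1198 to 1283 CPM with DMSO, 1302 to 1338 with HPPE, 1186 to 1322 with ZnPP and 1355 to 1396 with SnPP. Of that list PDGFRB rose with HPPE, COL1A2 and DCN rose and COL3A1 and PDGFRA fell with ZnPP, and COL1A2, DCN and PDGFRB rose and PDGFRA fell with SnPP. The part of these markers in the levels of the 8 genes was not tested. Markers of neuroblastoma identity, PHOX2A, HAND2 and others, summed to 5348 to 6159 CPM over all libraries. TH, the rate-limiting enzyme of catecholamine synthesis, was under the floor, with 1, 2, 1 and 1 counts summed over the DMSO, HPPE, ZnPP and SnPP groups.

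How unusual such a pattern was in the table was described with fixed lines: a mean under 0.5 CPM with DMSO and at least 1 CPM in every library of a compound. Of 42747 genes under the first line, 17 met the second with HPPE, 53 with ZnPP and 42 with SnPP. MALL and SIRPG-AS1 were among the 3 genes that met it with each compound, the other being TPM1-AS. HTRA3 met it with HPPE only, SIRPG with ZnPP only, PCBP3-AS1 with ZnPP and SnPP, and IL7R with SnPP only. PHLDA2 missed the second line with each compound, and LIF missed the first at 0.997 CPM. In the opposite direction, 4, 5 and 0 genes were under 0.5 CPM with HPPE, ZnPP and SnPP and at 1 CPM or more in every solvent library. Such genes were also found between compounds. Of genes under 0.5 CPM with HPPE, 35 met the second line with ZnPP and 18 with SnPP. For those under it with ZnPP, 14 met it with HPPE and 12 with SnPP, and for SnPP 6 with HPPE and 4 with ZnPP. The groups differ in the depth of their libraries, and its part in these numbers was not tested. Protein-coding genes made up 10 of the 17 with HPPE (58.8%), 7 of the 53 with ZnPP (13.2%) and 11 of the 42 with SnPP (26.2%). The percentage of all counts on genes that are not protein-coding was 2.48 to 2.77 with DMSO, 2.52 to 2.77 with HPPE, 2.90 to 3.45 with ZnPP and 2.64 to 2.95 with SnPP, and its part in these numbers was not tested.

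The lines cut through close values. The lowest library of STEAP1 with HPPE was at 1.0 CPM and that of POTEH with ZnPP at 1.05, just inside, and TMC2 and CLDN3 were inside with SnPP at 1.01. CCNB3, PLEK2 and LMO2 were outside with HPPE at 0.95 CPM, NBPF10 with ZnPP at 0.962 and EGR3 with SnPP at 0.974. IL7R with ZnPP had a lowest library of 0.785 CPM, SIRPG with SnPP 0.696 and PHLDA2 with SnPP 0.675. The numbers also moved with single libraries, from 14 to 45 with HPPE, 25 to 173 with ZnPP and 22 to 127 with SnPP on leaving out each library in turn.

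**Figure D4:**
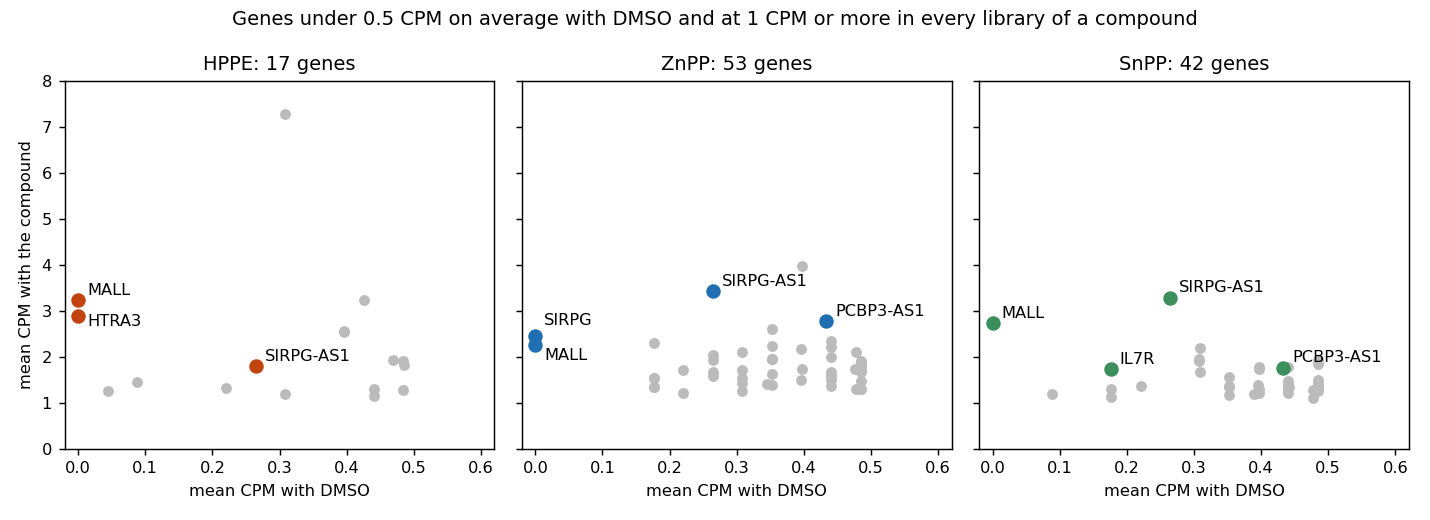
Mean CPM with DMSO (horizontal axis) against mean CPM with HPPE, ZnPP or SnPP (vertical axis) for the 17, 53 and 42 genes under 0.5 CPM on average with DMSO and at 1 CPM or more in every library of that compound. Named coloured points are genes of the set of 8, MALL, HTRA3 and SIRPG lying at 0 CPM with DMSO.

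Other genes followed the 8 closely over the 12 libraries, which share their groups and depths, so the correlations describe these libraries only. The Pearson r of log2(CPM + 1) was taken with each of 15883 tested genes of at least 1 CPM on average. HTRA3 was most like GCLM (0.989), OSGIN1 (0.983) and ME1 (0.982); GCLM, the modifier subunit of glutamate-cysteine ligase, was at 26.3 CPM with DMSO, 157.4 with HPPE, 42.4 with ZnPP and 27.9 with SnPP. MALL was most like SLC12A4 (0.951), ELL2 (0.943) and ELK3 (0.939), and LIF most like SLC18A1 (0.952), MSMO1 (0.946) and SPHK1 (0.942). PHLDA2 was nearest to LYNX1 (0.93), ADGRE5 (0.912) and CEBPD (0.91). SIRPG-AS1 was nearest to USP53 (0.984), LMCD1 (0.976) and PLD5 (0.965), and IL7R to TNFRSF9 (0.957), RTL1 (0.95) and SGIP1 (0.945). SIRPG followed ABHD17AP1 (0.955) and GARNL3 (0.931), and PCBP3-AS1 followed CCDC144NL-AS1 (0.939), with unnamed gene rows making up the rest of their nearest 3. Within the set the highest r was 0.88 for SIRPG-AS1 with IL7R, then 0.85 for MALL with LIF, 0.84 for MALL with PHLDA2 and 0.84 for SIRPG with PCBP3-AS1. The 2 genes of the SIRPG locus had 0.82 with each other, and HTRA3 with PCBP3-AS1 had the lowest, -0.39.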

How the data were processed

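RNA from SH-SY5Y cells was measured in 12 libraries, 3 for each of DMSO, HPPE, ZnPP and SnPP. The deposited values are raw counts of reads per gene, in whole numbers and without normalization. Per the submitters' processing notes, reads were processed with fastp 0.21.1, STAR 2.7.7a and featureCounts on GRCh38. The annotation and the strand setting are not given in the sources used here. No count column fell outside the 12 samples, and 60481 of 60710 gene rows matched a symbol. Sampling of reads sets the precision at these levels, and intervals and the floor of 3 counts cover counting error only, since no molecular identifiers were used.

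From the deposited counts, CPM were computed with TMM library sizes. edgeR 4.0.16 in R 4.3.3 fitted 1 mean per group to all 12 libraries after filterByExpr, which kept 16366 genes with 99.6% of counts. The quasi-likelihood test was robust and two-sided, p-values were adjusted by Benjamini-Hochberg over all tested genes, with a threshold of 0.05 for a call. The biological coefficient of variation was 0.0913. The SE of a log2 difference was derived from the test statistic, and its 95% interval used a normal quantile. These intervals are approximate and somewhat too narrow, so one can exclude 0 where the unadjusted p is above 0.05. Folds of the 8 genes are ratios of counts pooled over a group with exact conditional binomial 95% intervals. A lower bound against 3 counts over the group is given only where DMSO had 0 counts, although the written design foresaw bounds for every control library at or under 3 counts. The bound takes the compound counts as observed, without their counting error, and is not a 95% limit. Libraries of 1 group differed beyond counting noise in every pair (chi-square per degree of freedom 1.10 for HPPE replicates 2 and 3, up to 15.1), so all were counted separately.

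The 8 genes, the lists and the tests were chosen with earlier results of these data known. The lists were 6 of relatives and partners, LIF and IL7R signalling, the SIRP family and CD47, the MAL family, the HTRA family and TGF-beta ligands, the PHLDA family and 11p15 imprinted genes, and the PCBP family; 5 of markers, for T cells, myeloid, epithelial and mesenchymal cells and neuroblastoma; and the chromosomal neighbours, from the RefSeq gene table. Named are the 8 genes, the listed genes called against DMSO and up to 4 per list that were not, HMOX1, genes beside the lines of near-silence, and the 3 genes most like each of the 8. IL2RG, CRLF2, MAL and the marker genes at 0 counts, CD4, CD8A and TPM1-AS were named after their values were seen. Some listed genes are not reported here.

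Alternatives were other filters, RLE and unscaled library sizes, DESeq2 1.42.0, a fit without the uninvolved groups, estimation without robust weights, a block for the replicate number, a library axis as covariate, removal of the 3 shallow libraries and of each library in turn, and other lines of near-silence. The library axis was computed from the differences within groups of these same libraries. Fitting it removes spread by construction, so more calls with it were to be expected. HPPE replicates 2 and 3 summed was added after seeing the data. The fit was tested on simulated counts. Positions and promoters are from RefSeq GRCh38.p14 and exon overlaps from GENCODE release 29; the annotation used in counting may differ.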

Additional observations from a re-analysis of the deposited data

How the results depend on the processing

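Depth limited most of these values: at 3 counts a gene was at 0.337 CPM in the deepest library and 2.26 CPM in the shallowest. The number of the 8 genes called between HPPE and ZnPP was 4, with HTRA3, PCBP3-AS1 and SIRPG among them, whose tests are given as a description. It became 2 with the replicate block, without the 3 shallow libraries and, added after seeing the data, with HPPE replicates 2 and 3 summed, SIRPG and SIRPG-AS1 being lost in each. It was 3 with no gene filter, 5 with the compared groups only (MALL gained) and 6 with the library axis as covariate (MALL and IL7R gained). Between HPPE and SnPP it was 1 and became 4 with the library axis as covariate. Between ZnPP and SnPP it was 0 and became 1, LIF, with no gene filter and 1 with the library axis. DESeq2 left the adjusted p of 7 of the 8 genes empty for HPPE against ZnPP and of 5 for HPPE against SnPP, so no count is given for it there; its unadjusted p for HTRA3 was 6.32e-05 and 4.62e-06. Leaving out each library gave 1 to 4, 1 to 1 and 0 to 1 calls in the 3 contrasts. Same-numbered libraries correlated between -0.68 and 0.52, with 5 of 18 pairs over 0.1, so the numbers do not pair the libraries, and the replicate block is only an alternative here.

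Listed genes called higher with HPPE numbered 7, and 16 with the library axis; those lower numbered 2, and 7 with the axis. With ZnPP, 4 higher became 2 with the replicate block and 10 with the axis, and 1 lower became 3 with no gene filter, 11 with the axis, and 0 with the compared groups only, the replicate block, without the 3 shallow libraries or with HPPE replicates 2 and 3 summed. With SnPP, 7 higher became 11 with the axis, and 1 lower became 0 with the compared groups only and 2 with the axis. Leaving out each library gave 4 to 12 higher and 1 to 4 lower with HPPE, 1 to 5 and 0 to 2 with ZnPP, and 3 to 9 and 1 to 1 with SnPP.

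Of 23 alternatives, calls against DMSO were lost in 11 for COL6A1 with ZnPP, 8 for IL6R with SnPP, 8 for INHBA and 6 for PHLDA1 with HPPE, and 9 for PHLDA1 with ZnPP; none was lost for IL11 and TGFB3 with HPPE, INHBA and MYADM with SnPP, or SH3TC1 with any compound. The 17, 53 and 42 near-silent genes with HPPE, ZnPP and SnPP became 5, 9 and 6 with near-silence set under 0.25 CPM, 8, 12 and 8 with every solvent library at or under 3 counts, and 5, 4 and 1 with at least 2 CPM in every compound library. Leaving out each library gave 14 to 45, 25 to 173 and 22 to 127. Uncalled differences between ZnPP and SnPP that changed sign were IL7R at 0.0069 without ZnPP replicate 2 (from -0.94 to 0.0069 over single libraries left out) and PHLDA2 at 0.054 without ZnPP replicate 3 (from -1.54 to 0.054). Apart from construction (fewer libraries or genes, other lines), the cause was not tested.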
